A study of Caenorhabditis elegans with 11 samples.

Results

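The comparison set worms of 10 days against worms of 1 day, both exposed to 5 mM DOG, which is 2-deoxy-D-glucose, a sugar that hexokinase phosphorylates and that then blocks glycolysis. It used 6 of the 11 RNA-seq libraries of the series, 3 at each age, chosen by the age and agent in their labels. Earlier results of these data were known when the comparison was chosen. All worms were C. elegans of the wild-type strain N2 (variety Bristol), aged as days after the last larval stage, on plates with DOG and heat-inactivated E. coli. Offspring were removed daily by washing, and each library was made from many pooled whole worms, so that embryos inside the mothers were part of the sample. Both ages received the agent, and the older worms received it for longer, so that age and the duration of exposure cannot be told apart in these libraries. Untreated worms were not analysed here. No source used here says whether the replicates were separate cultures, and the p-values measure the spread between these libraries, which may be technical.

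A hermaphrodite of 1 day has just entered adulthood: the last moult is over, the adult cuticle is being finished by the hypodermis, and the sperm made as a larva is stored to fertilise oocytes that are loaded with yolk from the intestine. By 10 days the self-sperm is used up and egg laying has ended, although the gonad still holds germ cells and oocytes. A whole-worm library therefore mixes hypodermis, muscle, intestine, neurons and a large germ line. In such bulk samples a lower value can come from fewer cells of a type or from less RNA per cell, and these cannot be told apart.

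The young libraries held 23648292, 34717079 and 40277713 counts on genes and the older ones 39151996, 44489710 and 53593523. Values below are CPM, the counts of a gene divided by the total of its library and put on a common scale, with TMM factors of 0.9465 to 0.9996. They carry no gene length, and levels are therefore compared between ages. Where genes are described as high, low or most counted, this refers to counts and not to the abundance of transcripts. A sum of 100 counts or more over the 11 libraries was reached by 14773 genes, of which 5262 (35.6%) were called higher at 10 days and 5556 (37.6%) lower, so that 73.2% of all genes tested were called in either direction. A gene was called at an adjusted p under 0.01 in the quasi-likelihood test of edgeR, adjusted over all genes tested by the Benjamini-Hochberg method. The common biological coefficient of variation was 4.14%, so that even small changes were called, and the median gene changed by -0.04 on the log2 scale. A change of at least 1 on the log2 scale was called upward for 1705 genes (11.5%) and downward for 2833 (19.2%). The 3 values of one age lay wholly above the 3 of the other for 12095 genes (81.9%). The distance between libraries, 1 minus Pearson's r of log2(CPM + 1), was 0.0631 to 0.0680 between the ages, 0.00145 to 0.00193 within 1 day and 0.000913 to 0.00115 within 10 days. Replicate 2 of 1 day had 3.03% of its counts on the ribosomal RNA genes named rrn, against 1.18 to 1.98% in the other libraries of these ages. By distance it did not stand apart, at 0.00174 and 0.00145 from the other young libraries. Without it 5036 genes were called higher and 5312 lower. Of the rrn genes tested, rrn-2.1 was called lower at 10 days, with 813, 2759.8 and 384 CPM at 1 day against 204, 53.7 and 53.4 CPM. The others were not called.

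**Figure D1:**
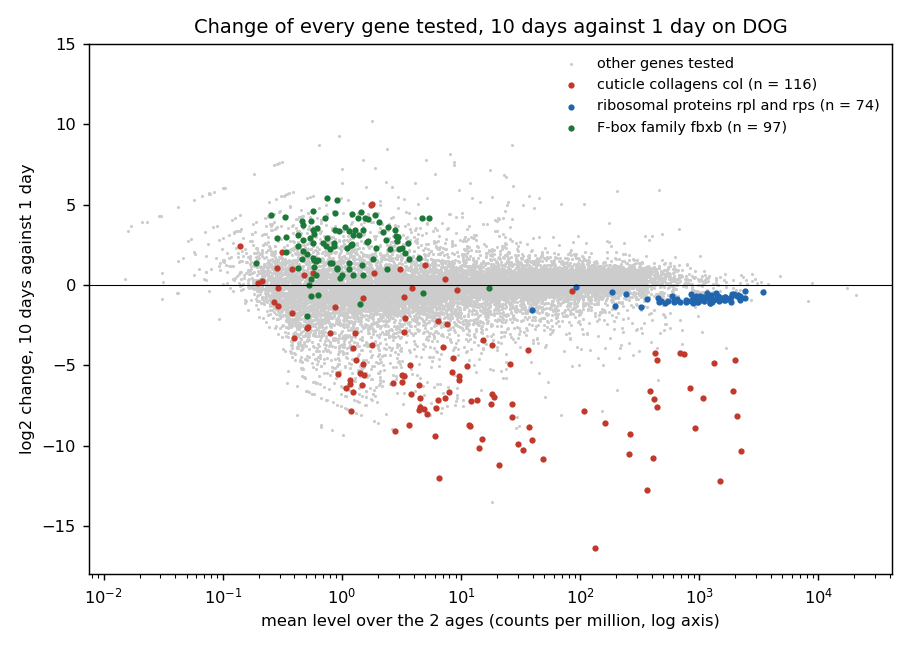
Each point is 1 of the 14773 genes tested, with its mean level over both ages (CPM, log axis) and its log2 change from 1 to 10 days on DOG (edgeR fit). The cuticle collagens (red) fill the lower edge, the ribosomal protein genes (blue) lie just under 0 at high levels, and the F-box genes of the fbxb family (green) lie above 0 at low levels. Values for genes with no count at one age, such as col-93 at -16.38, depend on the prior count of the fit.

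The labelled material, whole adult worms, was checked on markers of its tissues, and the markers of hypodermis, muscle, pharynx, intestine, neurons, germ line and sperm had reads at 1 day. The adult cuticle collagen col-19 had 50594, 68994 and 85288 counts at 1 day and 659, 691 and 936 at 10 days, and the body wall muscle myosin unc-54 fell by 2.90 on the log2 scale. The pharyngeal myosin myo-2 fell by 1.55, and the intestinal markers ges-1 and elt-2, an esterase and a GATA factor, fell by 0.62 and 0.71. Germline markers hardly moved: glh-1 (-0.06) and gld-1 (0.03) were not called, while pgl-1 rose by 0.36. The oocyte markers rme-2, the yolk receptor, and puf-5, an RNA-binding regulator, rose by 0.20 and 0.42. The sperm marker msp-142 went from 69, 100 and 100 counts to 0, 1 and 0.

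The deepest falls were in the cuticle. Collagens of the col family build the cuticle, an extracellular coat secreted by the hypodermis at each moult. Of the 159 col genes in the files 116 were tested, and 98 of them were lower at 10 days, 94 by at least 1 on the log2 scale, with 9 higher and a median change of -5.79. Summed over the family, 38210 to 40160 CPM at 1 day became 703 to 744 CPM at 10 days. The range of the older libraries lay under that of the young ones by a wide margin. Genes high at 1 day alone could pass the count minimum, so that part of the direction comes with the choice.

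Named below, for the whole comparison and for each list, are the genes with the largest changes among those that reached 100 counts in each library of the age where they were higher and whose ages did not overlap, with the most counted member of each list. For every called gene whose values are given by library, the 3 values of one age lay wholly above the 3 of the other. The counts given for each list stand against 35.6% higher and 37.6% lower over all genes tested. Of the 12 genes with the largest fall 10 are col genes, and another is rol-1. The exception is Y47D7A.15 on chromosome V, whose role is not annotated in the files, with 266, 419 and 563 counts at 1 day and none at 10 days, at least 598.7-fold lower. col-93 (W05B2.5) on chromosome III had 6169, 8704 and 10475 counts at 1 day and no count in any 10-day library, at least 12160.1-fold lower when 3 counts over the group are taken as the floor. Its neighbour in number, col-92, had 1251 counts in all at 1 day and none at 10 days, at least 600.1-fold lower. rol-1 (Y57A10A.11), a gene whose mutants roll, gave 749, 1035 and 1791 counts and then none, at least 1715.0-fold lower. No 10-day library of these 4 genes held a read. col-73 had 4052 counts over the young libraries and 2 over the older ones, a ratio of 2915.8 with an exact 95% interval of 806.7 to 24084.7 that covers counting error only.

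Other collagens still had reads at 10 days. col-124 stood at 4504, 4348 and 4513 CPM at 1 day and at 3.69, 3.51 and 3.16 CPM at 10 days, a log2 change of -10.34 ± 0.09 (SE, edgeR adjusted p = 1.3e-23). col-20 went from 2952, 2919 and 3043 CPM to 0.512, 0.634 and 0.710 CPM (-12.2002 ± 0.12). col-139 went from 704, 709 and 766 CPM to 0.179, 0.0226 and 0.112 CPM (-12.75 ± 0.16). In each of these the lowest young library exceeded the highest older one by more than 3 orders of magnitude. The remaining members of the 12 were col-159 (-10.83), col-129 (-10.80), col-81 (-10.53) and col-112 (-10.25). Reads were counted with htseq-count, and the setting for reads that align to several genes is not given in the sources used here. Whether reads shared by near-identical collagens were assigned to single genes or left out is therefore not known. Values of single members carry that uncertainty, as do those of the msp, vit, act and fbx genes below.

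A few collagens went the other way. col-121 rose from 0, 0.122 and 0.154 CPM to 3.71, 3.33 and 3.49 CPM (5.02 ± 0.30), and col-183 from 0.257, 0.0304 and 0.0772 to 3.66, 3.28 and 3.31 CPM (4.97 ± 0.33). Both stayed under 4 CPM at 10 days. At 5 days col-183 had a mean of 44.4 CPM, above both ages.

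Collagens named for body shape, whose mutants are dumpy, rolling or blistered, moved in both directions. Of 19 tested 12 fell and 6 rose, with a median of -4.47. With 100 counts required in every library 3 of these genes were left, with a median of 0.95. dpy-5 had 51.04, 50.8 and 71.6 CPM at 1 day and 0.128, 0.181 and 0.0560 CPM at 10 days. The log2 changes of dpy-5, dpy-4 and dpy-13 were -8.92, -8.76 and -8.20. In contrast dpy-14 rose from 2.53, 3.20 and 2.81 CPM to 82.5, 76.4 and 80.3 CPM (4.79 ± 0.08, adjusted p = 1.1e-19), and dpy-17 from 7.46, 9.04 and 7.65 to 51.4, 50.3 and 48.0 CPM (2.63 ± 0.08). dpy-3 rose by 1.11. In the same libraries the markers of moulting larvae were mixed, with 6 of 14 higher, 5 lower and a median of 0.04, and their summed level was 163 to 173 CPM at 1 day and 449 to 467 CPM at 10 days. The part of larval or embryonic tissue in the collagen rises was not tested.

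The largest rise among those moulting markers was that of fbn-1, a fibrillin-like matrix protein, with 1.76, 2.22 and 2.16 CPM at 1 day and 89.6, 83.9 and 89.4 CPM at 10 days (5.39 ± 0.10). noah-1, a matrix protein of the embryonic and larval epidermis, went from 9.56, 11.39 and 9.34 to 82.6, 78.8 and 79.0 CPM (2.99 ± 0.10), and mlt-11, a protease inhibitor, rose by 2.64. The lipoprotein receptor gene lrp-1 rose by 0.98. By contrast the astacin nas-37, which opens the old cuticle at the moult, fell by 1.299, the kinase gene nekl-3 fell by 1.19, and mlt-10 at -0.14 was not called.

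Other secreted products of the hypodermis were lower in part. Hedgehog-related genes encode secreted proteins (wrt, grd, grl) and patched-like membrane proteins (ptc, ptr). Of 59 tested 33 fell and 16 rose, with a median of -0.87, which became 0.17 over the 15 genes that had 100 counts in every library. The groundhog gene grd-3 fell from 137, 134 and 145 CPM to 0.410, 0.408 and 0.654 CPM (-8.095 ± 0.09), grd-14 changed by -7.23 and grd-13 by -6.62. As a family grd stood among those with the largest share of falls, with 8 of 10 lower, none higher and a median of -5.40. Such genes could pass the count minimum through the young libraries alone, so that part of this direction comes with the choice. The warthog gene wrt-10 rose from 1.84, 3.53 and 3.19 CPM to 23.4, 22.7 and 22.4 CPM (2.94 ± 0.11), and the patched-related ptr-22 and the patched gene ptc-1 rose by 1.71 and 0.35.

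Astacin proteases of the nas family, which cut extracellular proteins, fell in 15 of 27 genes and rose in 4. nas-3 fell by 3.24 and nas-7 by 3.16, and nas-5 rose by 1.81. Secreted transthyretin-related proteins (ttr) fell in 26 of 47 genes and rose in 11, with a median of -0.60. ttr-31 and ttr-14 fell by 3.73 and 3.04, whereas ttr-29, ttr-51 and ttr-45 rose by 2.40, 2.296 and 1.98.

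Basement membranes, the sheets of matrix under muscle and epidermis, lost transcript from 12 of 14 components, with a median of -1.55. unc-52, the perlecan that anchors body wall muscle, fell from 266, 247 and 249 CPM to 28.9, 26.5 and 27.3 CPM (-3.21 ± 0.04). The osteonectin gene ost-1 fell by 2.76, the fibulin gene fbl-1 by 2.19 and let-2, a type IV collagen, by 1.79. Laminin genes were the exceptions. lam-1 rose from 23.8, 25.6 and 25.7 to 48.1, 46.2 and 46.5 CPM (0.90 ± 0.08) and lam-3 by 0.31, a call that was lost without replicate 3 of 1 day (0.23).

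**Figure D2:**
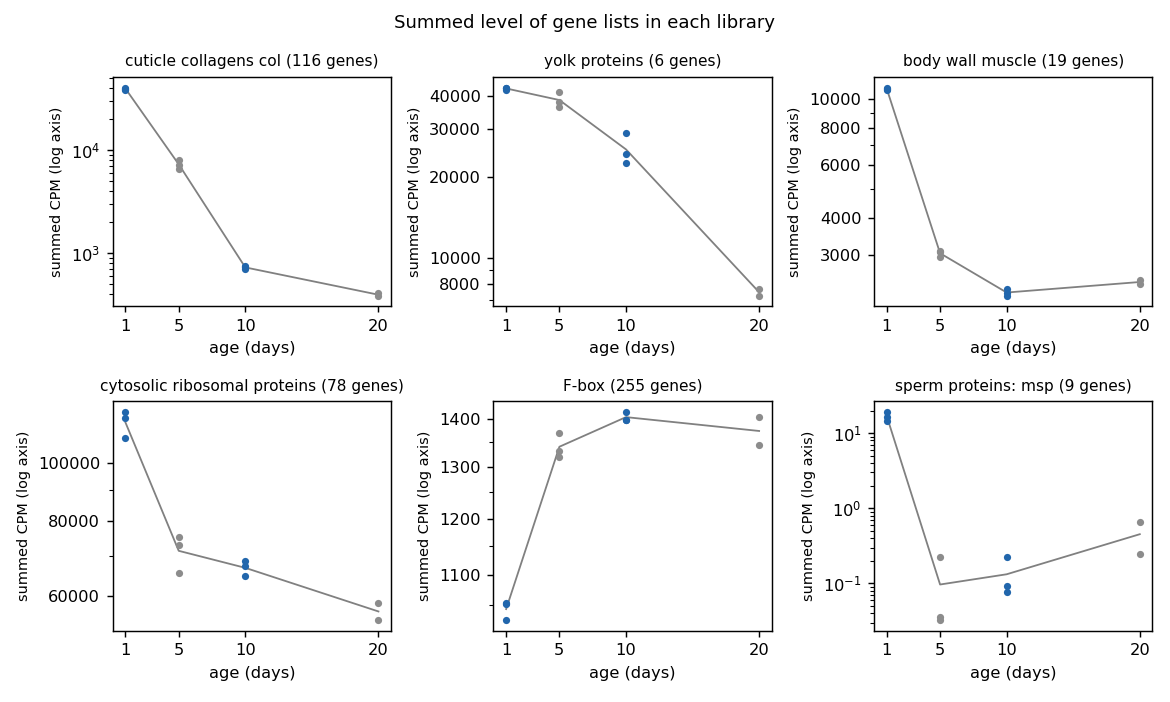
Summed CPM (log axes) of the tested genes of 6 lists in each of the 11 libraries against age in days. Each point is a library, the libraries of 1 and 10 days in blue and those of 5 and 20 days in grey, and the line joins the means. The libraries of 1 day and 10 days do not overlap in any panel: cuticle collagens go from 38210 to 40160 CPM down to 703 to 744 CPM, and F-box genes from 1026 to 1054 CPM up to 1398 to 1415 CPM.

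Sperm transcripts were almost gone. Major sperm protein (msp) is the cytoskeletal protein of the crawling sperm and also a signal to oocytes, and the msp genes are near-identical. Only 9 of the 30 msp genes in the files reached the count minimum, and all 9 were lower at 10 days. Their summed level was 14.5 to 19.2 CPM at 1 day and 0.0768 to 0.226 CPM at 10 days. The median change was -6.91 as fitted and -6.42 with members of 3 counts or fewer set at their bound. msp-76 had 57, 84 and 130 counts and then 0, 1 and 1, a ratio of 195.0 with an exact 95% interval of 53.5 to 1618.4.

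The other sperm-specific families (ssp, ssq, sss and nspd) fell in 15 of 15 genes tested, with a median of -6.61 as fitted and -5.89 at the bound. Among them ssq-2 went from 13.6, 13.1 and 14.004 CPM to 0.102, 0.0453 and 0.0187 CPM and nspd-1 from 10.2, 10.05 and 12.28 to 0.128, 0 and 0 CPM. Every library of 10 days lay under every library of 1 day for both. With almost no count at 10 days these genes passed the count minimum through the young libraries, so that part of the direction comes with the choice. Genes of the spe series, found by sterile sperm mutants and often expressed elsewhere too, were mixed, with 7 of 10 lower and 2 higher. spe-41, a sperm calcium channel, fell by 1.45, and spe-15, a myosin, rose by 0.43.

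Yolk protein genes moved unequally. The vit genes encode vitellogenins, lipid carriers made in the intestine and taken up by oocytes. vit-1 fell from 3041, 3183 and 3188 CPM to 192, 181 and 245 CPM (-3.93 ± 0.10, edgeR adjusted p = 2.5e-17). vit-3 fell from 777, 821 and 869.8 to 53.1, 50.4 and 59.997 CPM (-3.91 ± 0.08) and vit-4 from 311, 333 and 351 to 46.8, 47.1 and 55.6 CPM (-2.73 ± 0.08). The groups were far apart for all 3 genes.

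The remaining vit genes changed less. vit-2 went from 10748, 11017 and 11065 CPM to 5176, 4991 and 5929 CPM (-1.03 ± 0.06) and vit-6 from 25092, 25331 and 25125 CPM to 15512, 14165 and 18887 CPM (-0.64 ± 0.07). vit-5 (C04F6.1) was the only vit gene that rose, from 1996, 2153 and 2294 CPM to 3272, 3105 and 3875 CPM (0.67 ± 0.07). In total 41960 to 42890 CPM at 1 day became 22540 to 29050 CPM at 10 days. Replicate 3 of 10 days was the highest older library for each of the 6 genes. vit-3, vit-4 and vit-5 are close copies, so that reads shared by them could have been assigned to a single member or left out.

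**Figure D3:**
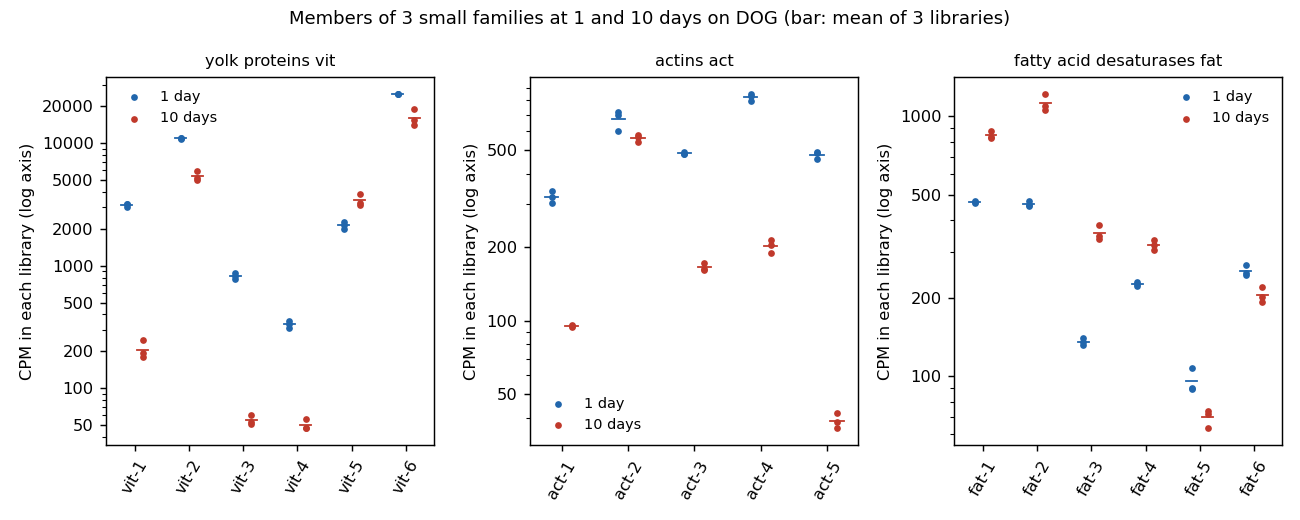
Levels in CPM (log axes) in each of the 3 libraries of 1 day (blue) and 10 days (red) for the vitellogenin genes vit, the actin genes act and the fatty acid desaturase genes fat, with a bar at the mean of 3 libraries. Within each family the members differ: vit-5 and fat-1 to fat-4 are higher at 10 days, and vit-1, vit-3, vit-4 and act-5 are much lower.

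Oocyte and germline transcripts were not lower as groups. Regulators of oocytes and early development were higher in 11 of 21 genes and lower in 2, with a median of 0.18. lin-41, which holds growing oocytes back from maturing, rose by 0.99, and puf-5 went from 981, 1055 and 1021 CPM to 1351, 1372 and 1377 CPM (0.42 ± 0.04). spn-4 and puf-7, RNA-binding proteins, fell by 0.20 and 0.28. Eggshell genes rose in 8 of 11 genes and fell in 1. The chitin synthase gene chs-1 rose by 0.59 and cpg-2, a chondroitin proteoglycan of the shell, by 0.38, whereas egg-5 fell by 0.33.

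Genes of germline stem cells and P granules, the RNA-protein bodies of germ cells, rose in 13 of 18 cases and fell in none. glp-1, the Notch receptor that keeps germ cells dividing, went from 215, 237 and 219 CPM to 471, 449 and 486 CPM (1.07 ± 0.05). mes-3, of the Polycomb-like complex, went from 44.3, 46.6 and 44.8 to 144, 142.3 and 141 CPM (1.65 ± 0.04). The cytoplasmic poly(A) polymerase gene gld-2 rose by 1.08. Meiotic genes were higher in 12 of 22 cases and lower in 4: the cohesin gene rec-8 rose from 87.4, 88.1 and 83.9 to 166, 171 and 162 CPM (0.94 ± 0.04) and syp-1 of the synaptonemal complex by 0.76, while its partner syp-2 fell by 0.33.

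Replication and cell cycle genes rose moderately. All 6 mcm genes, which encode the replicative helicase, were higher, from 0.47 for mcm-6 to 0.82 for mcm-2, which stood at 337, 363 and 336 CPM and then at 632, 614 and 582 CPM. Of 14 cyclins, kinases and partners 10 rose and 2 fell. cdk-2 rose by 1.37, and the B-type cyclins separated, with cyb-3 up by 0.43 and cyb-2.1 and cyb-2.2 down by 0.28 and 0.21. Argonaute genes, which carry small RNAs, rose in 11 of the 12 cases found by symbol, out of 20 listed. ergo-1 went from 281, 301 and 286 CPM to 736, 733 and 706 CPM (1.32 ± 0.04), nrde-3 rose by 1.21 and sago-2 by 1.34. The Piwi-related prg-2 was the exception, with 435, 387 and 389 CPM at 1 day and 264, 269.6 and 263 CPM at 10 days (-0.60 ± 0.04).

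Most histone transcripts carry no poly(A) tail, and 21 of 70 histone genes reached the count minimum. Of these 4 rose and 7 fell, and without replicate 2 of 1 day only 3 fell. The linker histone gene his-24 rose from 73.2, 79.7 and 67.3 CPM to 114, 117 and 111 CPM (0.64 ± 0.05), and the histone variant gene his-72 by 0.49. Transcripts first made by the embryo were divided too, with 6 of 14 markers higher and 6 lower, and a summed level of 64.03 to 67.6 CPM at 1 day and 81.3 to 83.6 CPM at 10 days. sdz-28 rose from 0.901, 0.944 and 1.21 CPM to 10.7, 11.3 and 10.2 CPM (3.36 ± 0.14) and the T-box gene tbx-38 from 0.643, 0.761 and 0.901 to 6.198, 6.57 and 5.64 CPM (2.95 ± 0.16). The epidermal factor elt-3 and pha-4, a factor of pharynx and gut, fell by 1.63 and 0.37. Among the early embryo markers tbx-37 and end-3 rose by 2.15 and 1.21, and end-1 and pes-10 fell by 2.34 and 0.77. sdz-1 was not called, and med-1, with 1, 2 and 1 counts at 1 day and none at 10 days, was not tested. The part of embryos in the germline and cell cycle values was not tested.

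Muscle genes fell together. Of 19 body wall muscle genes 17 were lower at 10 days, with a median of -2.67, and their summed level went from 10720 to 10920 CPM to 2182 to 2306 CPM. unc-54 (F11C3.3), the main myosin heavy chain, went from 1875, 1834 and 1872 CPM to 247, 265 and 235 CPM (-2.90 ± 0.06). Troponin genes gave the largest falls of the named members. tnt-2, a troponin T, went from 534, 531 and 540.3 CPM to 25.4, 27.6 and 24.5 CPM (-4.38 ± 0.05), mup-2, another troponin T, fell by 3.75 and unc-27, a troponin I, by 3.52. unc-45, the chaperone that folds myosin, was the 1 gene that rose, from 75.0, 71.6 and 70.1 to 104.5, 104.96 and 101 CPM (0.52 ± 0.04).

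In the pharynx, the feeding pump, 9 of 9 genes fell, with a median of -1.61. phat-4, a small secreted protein of the pharynx, fell from 17.03, 17.5 and 18.7 CPM to 0.0768, 0.113 and 0.0934 CPM (-7.50 ± 0.16), and the troponin gene tnt-4 by 2.07. The actin genes were lower at 5 of 5 but to different extents. act-5, the actin of intestinal microvilli, went from 460.0, 491 and 486 CPM to 38.6, 36.2 and 42.1 CPM (-3.62 ± 0.05), and act-4 of muscle from 794, 836 and 851 to 205, 214 and 190.0 CPM (-2.03 ± 0.04). act-1 and act-3 fell by 1.76 and 1.55. act-2 stood at 602, 717 and 698 CPM at 1 day and at 566, 575 and 540.0 CPM at 10 days (-0.26 ± 0.05), and the lowest young library stood close to the older ones.

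Tubulins, the subunits of microtubules, showed no common direction, with 5 of 14 higher and 5 lower. tbb-4, used in the cilia of sensory neurons, rose from 1.12, 1.07 and 1.08 CPM to 11.7, 10.8 and 11.8 CPM (3.40 ± 0.12), and the broadly used tbb-2 by 0.52. tba-9 fell from 12.9, 12.15 and 12.5 to 0.461, 0.589 and 0.504 CPM (-4.58 ± 0.13), tba-4 by 2.80 and mec-12 of the touch neurons by 1.68.

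The ribosome changed less per gene but in nearly every gene. Of 78 cytosolic ribosomal protein genes 77 were lower at 10 days and none higher, with a median of -0.86 and a range of -1.57 to -0.10. Their summed level went from 110000 to 121400 CPM to 64740 to 68540 CPM. The most counted member rpl-3 went from 3566, 4065 and 4068 CPM to 2917, 2942 and 2841 CPM (-0.43 ± 0.05, edgeR adjusted p = 1.7e-07). The largest fall was that of rpl-37, from 36.6, 75.3 and 66.0 to 19.8, 19.8 and 20.95 CPM (-1.57 ± 0.16), with replicate 1 of 1 day well under the other young libraries.

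Where 2 genes encode the same ribosomal protein, the copy on the X chromosome fell further, in both pairs looked at after the values were seen. rpl-11.2 on X went from 461, 468 and 489.6 CPM to 187, 174 and 185 CPM (-1.38 ± 0.05) and rpl-11.1 on V from 1375, 1568 and 1633 to 1006, 1017 and 943 CPM (-0.63 ± 0.06). rpl-25.1 on X changed by -1.28 ± 0.06 and rpl-25.2 on I by -0.55 ± 0.05. The difference within a pair was not tested.

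Translation factors and tRNA synthetases showed no such common fall. Of 28 translation factors 9 rose and 9 fell, with a median of 0.05. Subunits of initiation factor eIF3 were among the rises, with egl-45 going from 378, 402 and 386 CPM to 691, 689.6 and 671 CPM (0.82 ± 0.04) and eif-3.B up by 0.87, although eif-3.J fell by 0.59. The elongation factor eef-1A.1, the most counted, was not called, at 7615, 9183 and 8955 CPM and 9309, 9060.5 and 9114 CPM (0.09 ± 0.06), whereas its homologue eef-1A.2 rose by 0.78. Aminoacyl-tRNA synthetase genes, which charge tRNAs, were higher in 17 of 33 cases and lower in 9. lars-1 and aars-2 for leucine and alanine rose by 0.73 and 0.72, and pars-2 and fars-2 fell by 0.49 and 0.29.

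Respiratory chain genes were lower as a group. Of 47 listed nuclear genes 35 were found by symbol and tested. Of these 29 fell and 1 rose, with a median of -0.53. The one that rose was cyc-1, of complex III, by 0.22. The beta subunit of the ATP synthase, atp-2, fell by 0.29. asb-2 and asg-2 encode ATP synthase subunits b and g and lie on X: asb-2 went from 363, 377 and 388 CPM to 161, 159 and 161 CPM (-1.23 ± 0.03) and asg-2 from 148, 154 and 163 to 45.5, 44.2 and 44.1 CPM (-1.80 ± 0.04). Their paralogues changed less. asb-1 was not called, at 292, 327 and 319.8 CPM and 307, 305 and 289 CPM (-0.06 ± 0.04), and asg-1 changed by -0.61 ± 0.05.

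Similar contrasts stood between other copies, all picked after their values were seen and with the difference untested. ucr-2.2, a core subunit of complex III, fell by 1.55 and ucr-2.1 by 0.77, while ucr-2.3 at 0.07 was not called. The cytochrome c gene cyc-2.2, at 2.83, 3.65 and 4.04 CPM at 1 day, had 0.154, 0.0453 and 0 CPM at 10 days (-5.85 ± 0.37). The other cytochrome c gene cyc-2.1 went from 562, 550.0 and 554 to 347, 356 and 349 CPM (-0.66 ± 0.04).

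Genes of the mitochondrial genome, named here by their identifiers, fell in 8 of 9 cases with a median of -0.91. The share of all counts on that genome was 0.635 to 0.667% at 1 day and 0.386 to 0.403% at 10 days. MTCE.31 went from 1449, 1522 and 1610.0 CPM to 669, 697 and 693 CPM (-1.15 ± 0.04), and MTCE.34 from 81.7, 98.2 and 90.5 to 14.7, 11.7 and 17.9 CPM (-2.60 ± 0.31). The exception was MTCE.7, from 34.8, 65.6 and 39.3 to 94.2, 90.6 and 90.9 CPM (0.97 ± 0.14), with 1-day replicate 2 above the other young libraries. This mitochondrial list was not divided into protein-coding and ribosomal RNA genes. The 2 mitochondrial ribosomal protein genes of the list that were tested split, mrpl-41 lower by 0.56 and mrps-5 not called (0.09).

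The fuel pathways that feed the chain were lower in part. DOG acts on glycolysis. Of 19 listed genes of that pathway 13 were found by symbol and 12 were tested. These gave 9 falls and no rise, with a median of -0.55. The aldolase gene aldo-1 fell from 118, 117 and 126 CPM to 33.8, 33.4 and 30.9 CPM (-1.88 ± 0.05), gpd-3, a glyceraldehyde-3-phosphate dehydrogenase, by 1.74 and the lactate dehydrogenase gene ldh-1 by 1.49. The second aldolase aldo-2, the most counted gene of the list, was not called (-0.09 ± 0.04), and was called lower without replicate 1 of 1 day (-0.12). Of 21 listed citric acid cycle genes only 11 were found by symbol, and of these 8 fell and none rose. The malate dehydrogenase gene mdh-2 went from 712, 745 and 743 CPM to 368, 368 and 366 CPM (-0.999 ± 0.03), and idh-1 and mev-1 fell by 0.87 and 0.89. aco-2, the aconitase, was not called (0.03 ± 0.04).

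Genes of gluconeogenesis, the glyoxylate cycle and trehalose metabolism were divided, 4 of 12 higher and 5 lower. The gluconeogenic phosphatase gene fbp-1 fell by 0.88, and the trehalose synthase gene tps-1 and the trehalase gene tre-5 rose by 0.97 and 1.73. Of the 8 genes for synthesis of ubiquinone, the electron carrier between the complexes, 6 fell and 1 rose, led by coq-1 (-0.75) and coq-5 (-0.57) against coq-6 (0.40).

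The vacuolar ATPase, the proton pump of lysosomes, gut and excretory canal, fell in 18 of 20 genes, with a median of -0.82. The 4 isoforms of its a subunit did not move alike. vha-5 went from 155, 163 and 161 CPM to 31.3, 31.6 and 34.6 CPM (-2.29 ± 0.04), and vha-6 of the intestine from 216, 232 and 231 to 66.4, 63.7 and 77.8 CPM (-1.71 ± 0.06). unc-32, used in neurons and beyond, rose from 190.1, 195 and 196 to 271, 283 and 270.0 CPM (0.51 ± 0.04), and vha-7 rose by 0.48. These 2 were the only genes of the pump that rose. vha-12 and vha-13, of the catalytic sector, fell by 1.34 and 0.73.

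Most detoxification genes of the conjugating classes were lower at 10 days. Glutathione S-transferases, which couple glutathione to foreign and oxidised compounds, fell in 29 of 42 genes and rose in 3, with a median of -1.24. gst-10 went from 30.1, 35.4 and 35.9 CPM to 3.38, 2.72 and 3.29 CPM (-3.44 ± 0.10), gst-4, a target of the stress regulator SKN-1, from 38.7, 39.0 and 47.2 to 5.404, 5.10 and 6.09 CPM (-2.91 ± 0.08), and gst-28, a close copy of others in the family, from 10.6, 10.05 and 12.8 to 0.487, 0.611 and 1.01 CPM (-3.94 ± 0.16). gsto-3, of the omega class, rose by 0.80. UDP-glucuronosyltransferases, which add sugar to such compounds, fell in 43 of 63 genes and rose in 11, with a median of -0.81. ugt-22, the most counted, went from 137, 129 and 141 CPM to 26.5, 22.4 and 31.9 CPM (-2.33 ± 0.08) and ugt-18 rose from 0.300, 0.213 and 0.180 to 3.25, 3.22 and 3.87 CPM (3.95 ± 0.21).

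Cytochrome P450 genes, which oxidise such compounds first, showed no common direction, with 20 of 66 higher and 22 lower and a median of 0.03. cyp-35B1 rose from 2.96, 2.62 and 3.32 CPM to 51.3, 45.6 and 55.7 CPM (4.09 ± 0.09) and cyp-13A5 from 0.815, 0.974 and 0.978 to 16.44, 15.5 and 19.6 CPM (4.201 ± 0.16). cyp-35A5 fell from 23.9, 22.5 and 25.9996 to 4.66, 4.62 and 5.34 CPM (-2.302 ± 0.08), and cyp-13A2 by 3.07. Short-chain dehydrogenases fell in 19 of 30 genes and rose in 6, with dhs-25 at -4.09 and dhs-26 at 4.001. Aldehyde dehydrogenases (alh) fell in 9 of 12 and rose in 2.

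Antioxidant enzymes moved in both directions, 5 of 19 higher and 8 lower. gcs-1, which makes the first intermediate of glutathione, rose from 57.5, 59.4 and 59.1 CPM to 128, 127 and 125 CPM (1.11 ± 0.04). The thioredoxin reductase gene trxr-1 and the catalase gene ctl-3 rose by 0.85 and 2.05. The mitochondrial superoxide dismutase gene sod-3 fell from 10.6, 9.90 and 10.8 CPM to 2.1002, 2.06 and 1.55 CPM (-2.47 ± 0.11), and the peroxiredoxins prdx-3 and prdx-2 by 0.75 and 0.15. Metal handling genes were 4 of 12 higher and 5 lower. The ferritin gene ftn-1 (C54F6.14) rose from 1.84, 1.92 and 2.24 CPM to 62.7, 60.3 and 68.8 CPM (4.98 ± 0.10, edgeR adjusted p = 6.7e-19) while the other ferritin gene ftn-2 fell by 0.60. cdr-6 and cdr-4, of a cadmium-responsive family, fell by 1.35 and 1.35.

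Lipid genes split by step. Elongases, which lengthen fatty acids, fell in 6 of 8 genes and rose in none, with elo-6 going from 449.6, 452 and 475 CPM to 83.6, 82.5 and 103.6 CPM (-2.35 ± 0.06) and elo-2 from 234, 232 and 225 to 46.7, 46.7 and 51.5 CPM (-2.25 ± 0.04). Desaturases, which add double bonds, rose in 4 of 6. fat-3 went from 132, 136 and 140.2 CPM to 347, 337 and 382 CPM (1.38 ± 0.04), fat-2 from 454, 450.2 and 473 to 1093, 1058 and 1220.1 CPM (1.29 ± 0.05), and fat-1 and fat-4 rose by 0.85 and 0.50. fat-6 and fat-5, which act on saturated fatty acids, fell by 0.31 and 0.46.

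The lipid-binding proteins of the lbp family fell at 9 of 9 genes, with a median of -1.17, led by lbp-6, from 291, 331 and 339 CPM to 68.0, 64.1 and 70.6 CPM (-2.25 ± 0.05). Acyl-CoA synthetases, dehydrogenases and carnitine transferases fell in 28 of 52 cases and rose in 16. acs-7 (-2.81), acdh-9 (-2.56) and ech-7 (-2.48) were the largest falls named, and ech-9 (3.40), cpt-3 (2.75) and cpt-4 (2.08) the largest rises. Peroxisome assembly genes (prx) fell in 8 of 10 cases and rose in none, with a median of -0.36.

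The largest rises included genes for small secreted proteins. ins-8 (ZK1251.11), an insulin-like peptide gene on chromosome IV, had no count at 1 day and 133, 140 and 223 counts at 10 days, at least 114.9-fold higher. The invertebrate lysozyme gene ilys-3 (C45G7.3) went from 0.0429, 0.0304 and 0.257 CPM to 52.7, 51.6 and 56.7 CPM (8.70 ± 0.17, edgeR adjusted p = 6.5e-19). dct-8, a gene first listed as a target of DAF-16, went from 0.0858, 0 and 0.0772 CPM to 15.9, 16.15 and 16.43 CPM (8.18 ± 0.22). No 1-day library of these genes reached 1 CPM.

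Its namesake dct-7 had 1 count over the young libraries and 655 over the older ones, a ratio of 455.1 with an exact 95% interval of 81.4 to 18003.4. spp-9, a saposin-like peptide gene, had 1 and 407 counts, a ratio of 282.8 with an interval of 50.5 to 11197.1. H39E23.3 had 2 and 516 counts, a ratio of 179.3 with an interval of 49.4 to 1484.2. The other genes of the 12 largest rises were nlp-39 (7.63), a peptide gene, cnc-6 (6.93), and C54C8.12 (7.79), F56D6.8 (7.46), C18D11.6 (7.15) and T26H5.9 (6.82), whose roles are not annotated in the files. C18D11.6 stood at 0.343, 0.213 and 0.206 CPM and then at 35.8, 35.1 and 34.0 CPM, and T26H5.9 at 0.386, 0.457 and 0.360 and then 43.4, 43.3 and 49.3 CPM.

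Antimicrobial peptides and lysozymes, made by gut and epidermis against microbes, changed in both directions. Caenacins, abf and saposin-like genes rose in 16 of 32 cases and fell in 10. abf-2, an antibacterial factor, went from 0.858, 0.700 and 0.721 CPM to 53.6, 51.9 and 56.0 CPM (6.16 ± 0.13), and the caenacin cnc-6 from 0.172, 0.0609 and 0.0772 to 12.8, 12.5 and 10.8 CPM (6.93 ± 0.22). On the side of the falls, spp-17 went from 266, 267 and 279 CPM to 10.2, 10.9 and 12.7 CPM (-4.57 ± 0.08), and spp-23 and spp-4 fell by 2.37 and 2.33.

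Lysozymes rose in 6 of 12 cases and fell in 6. lys-7, of the protist-type family, went from 99.97, 92.2 and 100.03 CPM to 876, 823 and 932 CPM (3.17 ± 0.06), whereas lys-4 went from 225, 228 and 245 to 50.7, 49.3 and 63.6 CPM (-2.09 ± 0.09) and ilys-5 from 857, 856 and 908 to 157, 150.5 and 180.0 CPM (-2.43 ± 0.11). C-type lectins, sugar-binding proteins often secreted into the gut, fell in 52 of 113 cases and rose in 40, with a median of -0.30. clec-190 rose from 3.77, 3.53 and 4.27 CPM to 48.2, 49.7 and 44.8 CPM (3.61 ± 0.07), and clec-123 fell from 5.49, 5.12 and 5.998 to 0.179, 0.113 and 0.187 CPM (-5.08 ± 0.22).

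Among digestive proteases, the cathepsin B genes (cpr) rose in 4 of 6 cases. cpr-2 went from 0.386, 0.183 and 0.180 CPM to 8.78, 9.17 and 12.4 CPM (5.44 ± 0.24) and cpr-1 of the gut from 459.9, 435 and 484 CPM to 1545, 1472 and 1701 CPM (1.78 ± 0.10). cpr-4 and cpr-3 rose by 1.81 and 1.77, and cpr-6 and cpr-5 fell by 0.96 and 0.46. Aspartyl proteases fell in 3 of 6 and rose in 2. asp-2 went from 793, 783 and 829.8 CPM to 209.8, 205 and 239 CPM (-1.88 ± 0.06), asp-6 and asp-5 rose by 0.53 and 0.43, and asp-3 was not called, at 1403, 1429 and 1524 CPM and 1435, 1359.6 and 1557 CPM.

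F-box genes rose in large numbers. Their products bring target proteins to ubiquitin ligases. Of 255 fbxa, fbxb and fbxc genes tested 151 were higher and 33 lower, with a median of 1.11, but their summed level rose only from 1026 to 1054 CPM to 1398 to 1415 CPM. The 3 families differed in their counts. In fbxb 86 of 97 genes rose and 3 fell (median 2.60), in fbxc 24 of 33 rose and 3 fell (1.39), and in fbxa 41 of 125 rose and 27 fell (0.18). The count minimum admits genes that are high at 1 age only, so that part of the direction comes with the choice. With 100 counts required in every library only 2 fbxb genes were left, with a median of -0.43.

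The F-box genes with the largest changes stayed at low levels. fbxc-25 rose from 0.257, 0.122 and 0.232 CPM to 5.48, 5.91 and 5.71 CPM (4.81 ± 0.20), fbxb-102 from 0.300, 0.0609 and 0.0515 to 2.92, 2.88 and 2.52 CPM (4.53 ± 0.34), and fbxa-24 from 0.729, 0.761 and 1.08 to 20.3, 19.7 and 18.8 CPM (4.46 ± 0.10). fbxa-72 fell from 29.5, 33.2 and 34.2 to 3.36, 3.92 and 3.53 CPM (-3.17 ± 0.08). fbxa-215, the most counted of them, was not called (0.05 ± 0.03). MATH-domain genes, adapters of the same ligases, rose in 25 of 60 cases (41.7%) and fell in 16 (26.7%). Over all genes tested 35.6% rose and 37.6% fell. Among the named members the changes ran from math-4 at -1.66 to math-38 at 3.12.

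Nuclear hormone receptors, a large group of transcription factors, rose in 55 of 190 cases (28.9%) and fell in 53 (27.9%). Both shares were under those over all genes tested, 35.6% and 37.6%. nhr-114, which acts in gut and germ line, fell from 257, 212 and 210.3 CPM to 13.3, 12.7 and 14.5 CPM (-4.06 ± 0.07). nhr-25, a regulator of moulting and epidermis, rose from 2.36, 2.19 and 1.85 to 9.32, 8.94 and 8.80 CPM (2.099 ± 0.15), and nhr-49, a regulator of fat metabolism, by 0.43.

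All genes were also grouped by the letters of their symbol, which gave 96 families with at least 10 genes tested. The median change was above 0.5 in 10 of them and below -0.5 in 25. Ranked by the share of genes called higher, the first were npp, nucleoporins, with 21 of 22 higher, ced, genes of cell death and engulfment, with 11 of 12, and fbxb. Then came sec (secretory pathway, 11 of 14), atg (autophagy, 10 of 13), cdc (8 of 11), fbxc, and rgs and sel with 7 of 10 each. The medians of these families other than the F-box ones were small, from 0.25 in cdc to 0.65 in npp. Ranked by the share called lower, the first were rps (31 of 31), rpl (42 of 43), vha (18 of 19), col (98 of 116), grd, prx, alh and gst (28 of 39).

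**Figure D4:**
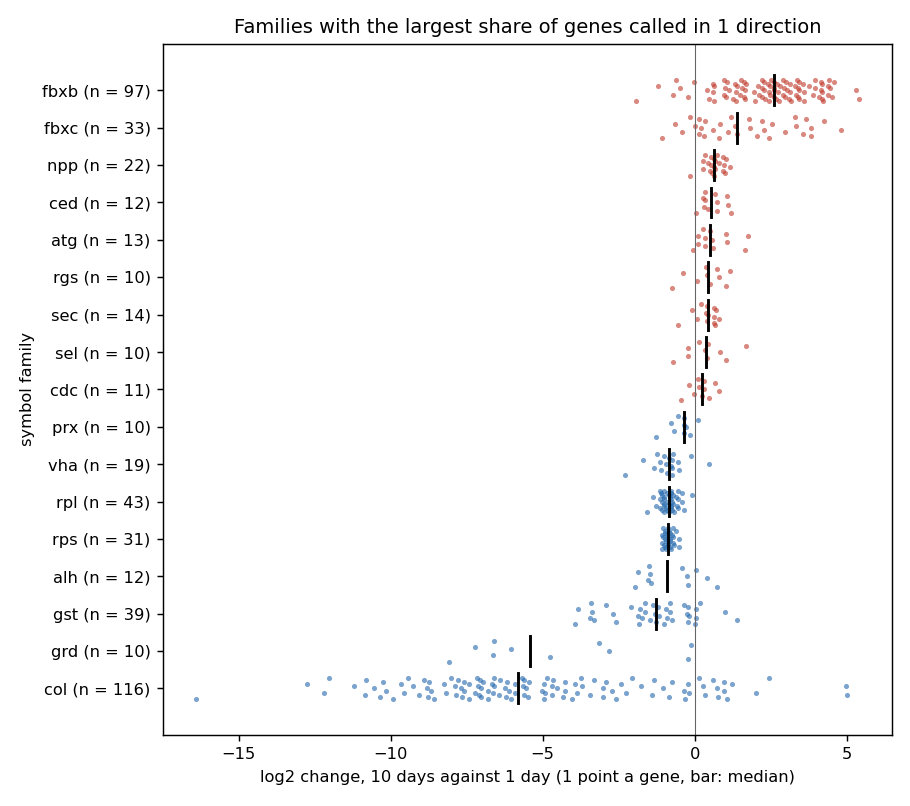
Log2 change from 1 to 10 days of every tested gene (points) in the symbol families with the largest share called higher (red) and called lower (blue), with a bar at the median. The median runs from -5.79 in col to 2.60 in fbxb. The ribosomal families rpl and rps are narrow, with every gene under 0, and col spreads over both sides.

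The nutrient-sensing pathways rose at most of their genes. In the insulin pathway, where the receptor DAF-2 signals through lipid and protein kinases to hold back the transcription factor DAF-16, 9 of 11 genes were higher and 1 lower, with a median of 0.64. daf-2 (Y55D5A.5), the receptor, went from 62.1, 70.2 and 64.4 CPM to 277, 266 and 266 CPM (2.04 ± 0.05, edgeR adjusted p = 5.8e-18). The kinase gene pdk-1 went from 28.4, 24.9 and 22.99 to 64.2, 64.2 and 59.2 CPM (1.31 ± 0.06) and the kinase gene akt-2 rose by 1.12. In both daf-2 and pdk-1 the older libraries lay well above the young ones.

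AMPK, the sensor of low energy, and TOR, the kinase that promotes growth, gave 14 of 16 genes higher and 1 lower. rict-1, of TOR complex 2, went from 103, 104.3 and 101 CPM to 324, 316 and 317 CPM (1.63 ± 0.03), and daf-15, of TOR complex 1, from 162, 176 and 161 to 331, 324 and 344 CPM (1.002 ± 0.04). The AMPK subunit genes aakg-4 and aakb-2 rose by 1.37 and 1.195. Autophagy genes, which build the membranes that enclose cell parts for breakdown, rose in 17 of 20 cases and fell in none. epg-2, an adapter, went from 31.8, 32.1 and 28.4 CPM to 139, 135 and 132 CPM (2.15 ± 0.08), atg-2 from 30.5, 27.4 and 26.8 to 92.4, 93.1 and 96.0 CPM (1.74 ± 0.05), epg-5 rose by 1.68, and lgg-1, the membrane-bound ATG8 homologue, went from 294, 305 and 299 to 475, 459 and 484 CPM (0.66 ± 0.04).

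**Figure D5:**
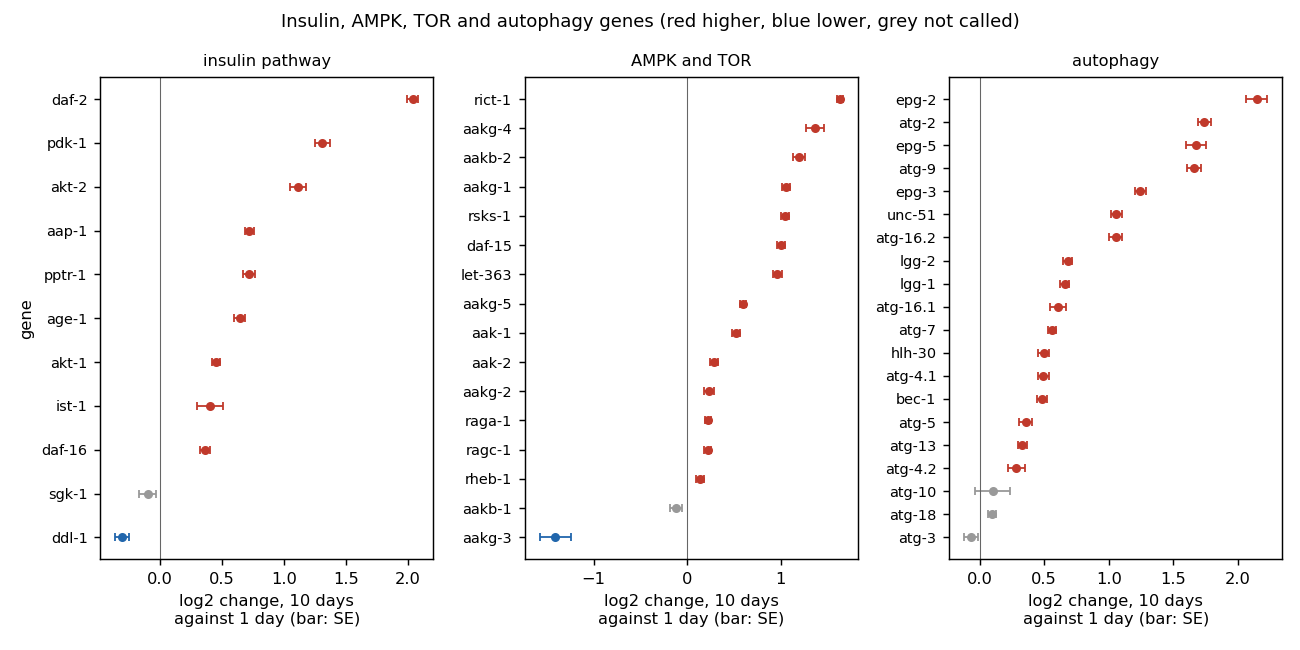
Log2 change from 1 to 10 days with its standard error for each tested gene of the insulin pathway, of AMPK and TOR, and of autophagy (edgeR fit on all 11 libraries). Red points were called higher, blue points lower and grey points were not called. daf-2 at 2.04, rict-1 at 1.63 and epg-2 at 2.15 lead the lists, and aakg-3 and ddl-1 are the genes that fell.

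Genes downstream of DAF-16 had no common direction, 7 of 16 higher and 6 lower. The metallothionein gene mtl-1 rose from 2.53, 2.19 and 2.09 CPM to 36.8, 32.04 and 40.3 CPM (4.03 ± 0.13) and dod-3 from 1.63, 0.883 and 1.29 to 15.9, 13.2 and 13.99 CPM (3.53 ± 0.17). sod-3, also a DAF-16 target, was among the falls given above, and dod-24 fell from 17.97, 18.3 and 17.97 to 4.02, 3.46 and 4.24 CPM (-2.205 ± 0.08). Insulin-like peptide genes, the ligands, rose in 10 of 28 cases and fell in 13. Besides ins-8, ins-19 rose from 0.901, 0.335 and 1.08 CPM to 28.3, 28.1 and 28.5 CPM (5.18 ± 0.14) and ins-2 from 0, 0.0913 and 0.154 to 7.56, 8.27 and 8.37 CPM (6.37 ± 0.25). daf-28, a ligand of sensory neurons that activates the receptor, fell from 9.78, 7.34 and 7.26 to 2.36, 2.45 and 1.96 CPM (-1.84 ± 0.14).

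Protein folding and breakdown genes changed in both directions. Heat shock genes and other chaperones were 9 of 21 higher and 10 lower. The inducible hsp-70 rose from 0.429, 0.274 and 0.463 CPM to 4.97, 4.42 and 4.03 CPM (3.50 ± 0.18), sip-1, a small heat shock protein of oocytes and embryos, from 1678, 1796 and 1814 CPM to 2801, 2721 and 2681 CPM (0.63 ± 0.06), and the regulator hsf-1 by 0.60. hsp-12.2 and hsp-25 fell by 2.26 and 1.98, the mitochondrial hsp-60 by 0.69 and the constitutive hsp-1 by 0.32. daf-21, the cytosolic Hsp90, was not called (0.10). The chaperonin CCT gave 4 of 8 higher and 2 lower, from cct-2 at -0.23 to cct-3 at 0.57.

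Proteasome subunits did so as well: of 32 tested 12 rose and 16 fell. The core subunits pas-4 and pas-5 fell by 0.53 and 0.50, and rpn-2 and rpn-1, the scaffold of the regulatory particle, rose by 0.69 and 0.58. No change in this list reached 1 on the log2 scale.

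Lists of neuronal genes differed in direction, with more falls than rises in neuropeptide and synaptic genes and only rises called among cilia genes. The share lower was 58.6% of neuropeptide genes and 42.1% of synaptic genes, against 37.6% of all genes tested. Neuropeptide genes (flp and nlp) fell in 41 of 70 cases and rose in 8, with a median of -0.37. nlp-24 fell from 46.0, 49.1 and 46.4 CPM to 0.563, 1.02 and 0.915 CPM (-5.79 ± 0.12) and nlp-33 by 3.27. nlp-39 rose from 0.0858, 0.0304 and 0.129 to 18.3, 17.96 and 15.8 CPM (7.63 ± 0.21) and nlp-34, an antimicrobial peptide of the epidermis, by 3.67, so that the list holds peptides of other tissues too. Of 19 synaptic genes 4 rose and 8 fell: rab-3, a vesicle GTPase, went from 7.81, 7.31 and 7.36 to 3.46, 3.37 and 3.36 CPM (-1.14 ± 0.10), cha-1 and unc-25, which make acetylcholine and GABA, fell by 1.39 and 1.27, and the synaptobrevin gene snb-1, expressed beyond neurons, rose from 144, 135 and 133 to 215, 219 and 211 CPM (0.64 ± 0.04).

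Genes of intraflagellar transport, which builds the cilia of sensory neurons, rose in 12 of 26 cases and fell in none, with a median of 0.64. The transport gene dyf-2 and the kinesin gene klp-11 rose by 0.96 and 0.78, and daf-19, the factor that controls cilia genes, by 0.67. Of 1336 chemoreceptor genes in the files only 86 reached the count minimum. Of these 26 rose (30.2%) and 15 fell (17.4%), both shares under those over all genes tested. sri-40 fell from 18.1, 18.9 and 17.9 CPM to 0.256, 0.226 and 0.168 CPM (-6.41 ± 0.13).

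By chromosome, called rises and falls were not spread evenly. On X 28.6% of the 2146 genes tested were higher and 43.5% lower, with a median of -0.25. On I 41.4% were higher and 34.5% lower, and on III 40.5% and 31.9%, with medians of 0.06 for both. IV and V lay between, with 34.7% and 31.4% higher and 39.6% and 40.0% lower. In C. elegans the X chromosome holds few genes that are expressed in the germ line.

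The libraries of 5 and 20 days place the change in time. Their comparisons share libraries with the one above and are given side by side only. Between 1 and 5 days 34.5% of genes were called higher and 34.0% lower, between 5 and 10 days 23.7% and 24.6%, and between 10 and 20 days 28.3% and 28.2%. The distance between libraries was 0.0415 to 0.0464 for 1 against 5 days and 0.0153 to 0.0178 for 5 against 10 days.

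Several groups changed mainly before 5 days. Ribosomal protein genes had a median of -0.73 from 1 to 5 days and -0.10 from 5 to 10 days, pharyngeal genes -2.17 and 0.17, actins -1.80 and -0.02, and basement membrane genes -1.55 and -0.06. Collagens went on falling, with -4.11 and then -1.21. col-93 had a mean of 2.04 CPM at 5 days, between the 2 ages compared.

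Yolk genes fell mainly in the second interval, with medians of -0.34 and -1.26. vit-5 had a mean of 4877 CPM at 5 days, above both other ages, and 475 CPM at 20 days. Oocyte and eggshell genes rose first and then fell back: the medians were 0.35 and -0.22 for oocyte genes and 0.51 and -0.36 for eggshell genes.

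Other genes made the larger part of their log2 rise after 5 days. fbn-1 had a mean of 6.30 CPM at 5 days, cpr-2 0.253 CPM, ins-2 0.312 CPM and fbxa-24 1.52 CPM. Others passed through a peak: dct-8 had 33.6 CPM at 5 days, F56D6.8 47.6 CPM, ins-19 44.3 CPM and mtl-1 65.3 CPM, more than at 1 or 10 days. By 20 days cpr-1 was at a mean of 42.8 CPM and asp-3 at 60.4 CPM, far under the 10-day values, while fbxa-24 reached 132 CPM.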

How the data were processed

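RNA of pooled whole worms was made into libraries with a TruSeq kit that does not mark strand and sequenced as single reads of 50 bases, so that overlapping and antisense genes cannot be told apart. Per the labels and the study's methods, the authors aligned reads with TopHat 1.4.1 to the WS220 assembly and used htseq-count in union mode to count reads on genes. The deposited values were raw counts per gene, not normalised, for 45461 rows, of which 26569 held a count and 4 had no gene symbol. Every column of values belonged to a sample used here.

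The 14773 genes whose counts over the 11 libraries on DOG came to 100 or more were tested with edgeR 4.0.16 (R 4.3.3): TMM scaling, 1 quasi-likelihood fit over the 4 ages (3, 3, 3 and 2 libraries), the contrast of 10 against 1 day, and Benjamini-Hochberg adjustment over all genes. A gene was called at an adjusted p under 0.01. The study used that level too, but required it in both edgeR and DESeq and dropped genes with under 100 counts in a sample. The standard error of a log2 change was the change divided by the square root of its F statistic. Intervals of count ratios are exact, at 95%, and cover counting error only. A fold against a group without counts is a bound set at 3 counts over the group.

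The comparison, its members and the gene lists were chosen with earlier results of these data known. Most named genes followed 1 rule: the 12 largest rises and 12 largest falls among called genes that reached 100 counts in each library of the age where they were higher and whose ages did not overlap, and for each list the 3 largest rises and falls under the same conditions, its most counted member, and all members of lists of 6 or fewer. Genes discussed in the study's text were also eligible. Outside the rule, tissue markers were named from marker lists, and paralogues were named beside members after their values were seen, as the text says. Gene lists were matched by symbol, and listed genes not found by that symbol were left out. Symbol families had at least 10 genes tested, and the 8 with the highest share in each direction were named. The procedure was tested on simulated counts in which few genes changed, whereas 73.2% of the genes tested were called here. That test therefore gives no rate of false calls for these data. Alternatives were DESeq2 1.42.0, other scalings and filters, a fit on both ages alone, the replicate number as a block, and leaving out each replicate. Coordinates and sequences were not used here. One gene of the insulin pathway is not reported here.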

Additional observations from a re-analysis of the deposited data

How the results depend on the processing

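No gene called in the comparison was called in the opposite direction under any alternative that tested it. DESeq2 called 5241 genes higher and 5227 lower, plain library size 5556 and 5274, RLE factors 5386 and 5462, no filter on low counts 5428 and 6396, a fit of the 2 ages alone 5270 and 5539, and an adjusted p under 0.05 gave 5722 and 6122. Leaving out 1 replicate gave 4982 to 5126 genes higher and 5190 to 5406 lower. With 100 counts required in every library, which by construction removes genes that are low at 1 age, 3302 were higher and 3442 lower, and requiring a change of at least 1 on the log2 scale left 1705 higher and 2833 lower. The same filter on every library turned the sign of 7 medians: spe genes 0.06 (4 genes left), body-shape collagens 0.95 (3), hedgehog-related genes 0.17 (15), antimicrobial genes -0.65 (16), DAF-16 targets -0.27 (9), chemoreceptors -0.64 (4) and fbxb -0.43 (2). Of the 10818 calls 10083 to 10398 were kept when 1 replicate was left out and 10384 with DESeq2. Among the named genes alone 23 calls were lost and 16 gained, each counted once for every alternative. Same-numbered libraries of the 2 ages deviated from their group means with correlations of 2e-04, 0.0154 and 0.0294. Those of other numbers gave -0.0251 to 0.0089. With 3 libraries an age these values do not settle whether the numbers mark pairs. A replicate block gave 5246 higher and 5535 lower. Depth limits values under about 0.1 CPM, which rest on fewer than 6 counts a library. Both ages were on DOG, and age and exposure cannot be told apart.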
